A study of Homo sapiens with 9 samples.

Results

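Transcripts of 9 genes of the Notch pathway were measured in A549 cells and in both cell populations derived from them by transduction. The ligand genes were JAG1, JAG2 and DLL1, the receptor genes were NOTCH1, NOTCH2 and NOTCH3, and the target genes were HES1, HEY1 and NRARP. Members were taken as every non-control probe annotated with a RefSeq transcript of one of these genes, which gave 12 probes for 9 genes out of 50599 probes and 21743 named genes on the array.

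Notch receptors are single-pass membrane proteins that are activated by Jagged or Delta ligands on a neighbouring cell. Ligand binding allows an ADAM protease and then gamma-secretase to cut the receptor, and the released intracellular domain joins the DNA-binding protein RBPJ and a Mastermind coactivator to switch on genes such as HES1, HEY1 and NRARP. In the lung, Notch signalling takes part in the choice between secretory and ciliated airway cells, and NOTCH1 and NOTCH3 have been studied in lung adenocarcinoma.

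A549 cells are an established line from a human lung adenocarcinoma, and all 9 arrays hold RNA from them or from cells made from them. Parental A549 cells were untransduced and at passage 98, 98 and 99 in replicates 1 to 3. OSK-A549-Colony cells came from A549 cells that received OCT3/4, SOX2 and KLF4 by retrovirus and formed colonies, which were picked and passaged. OSK-A549-SN cells were the spindle-shaped cells around those colonies, separated only by how early trypsin detached them, and had the same passage numbers as the Colony cells, 7 to 9 passages after the parental samples. Each group had 3 single-colour Agilent arrays, from 3 transduction experiments according to the methods of the study. No array analysed here held cells transduced with a control vector, and all transduced samples came from later passages, so that transduction, colony picking and passage cannot be told apart in either comparison with parental cells.

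Every array reached a similar brightness, with a 75th percentile between 218 and 271 intensity units and 25809 to 29316 probes detected. The 6 general epithelial markers, among them EPCAM, CDH1 and KRT18, were above background on all 9 arrays. Of 5 lung lineage markers, SFTPC and NAPSA were above background on all 9 arrays, SFTPA1 and SFTPB on 2 each and the lung lineage factor NKX2-1 on none. Of the fibroblast markers, 7 of 8 were above background on no array and COL1A1 was on 3. Of 8 endothelial markers, CDH5 and VWF were above background on all 9 arrays and PECAM1, TEK, TIE1 and ERG on none, and of 5 blood cell markers, PTPRC, CD68 and CD14 were on all 9. Parental replicate 3 was the highest or the lowest of its group for 80.7% of the 33086 probes detected on any array, and for all 10 Notch probes tested, 7 times the highest and 3 times the lowest. SN replicate 3, which was alone on the second slide while the other arrays shared the first, was an extreme of its group for 79.9% of probes.

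Levels are given below as log2 intensity relative to the 75th percentile of the same array, so that 0 marks a probe at that percentile. Because the brightness of a probe also depends on its sequence, levels are compared between arrays and not between probes. A difference was tested with limma on the 6 arrays compared, with p-values adjusted over all detected probes, and "rose" and "fell" are used only for an adjusted p under 0.05. In these bulk samples, fewer cells of a type and less RNA per cell cannot be told apart.

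Of the 12 probes, 10 probes of 8 genes were detected and tested, and JAG1 was the only member that passed in any comparison. JAG1 rose in OSK-A549-Colony cells, at 1.56-fold of the parental level. Between OSK-A549-Colony and parental cells 1 of 10 probes passed, where 9.02% of all 30869 probes tested did, and 0 of 10 also had a fold change over 2, where 3.71% of all probes did. In OSK-A549-SN cells against parental cells 0 of 10 probes passed, where 1.82% of 32222 probes did, or 1.54% with a fold change over 2. Between Colony and SN cells 0 of 10 probes passed, and over all 31747 probes 0% passed limma's test, with or without the fold change, although 6181 probes had an unadjusted p under 0.05. At that unadjusted p, the Notch probes numbered 3, 1 and 4 of 10 in the 3 comparisons in the same order, where 30.1%, 21.6% and 19.5% of all probes reached it.

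Among the ligands, JAG1 encodes a Jagged protein that binds Notch receptors on adjacent cells. Its level was 0.66, 0.60 and 0.38 in parental replicates 1 to 3, 1.31, 1.11 and 1.14 in OSK-A549-Colony cells, and 1.23, 0.98 and 0.82 in OSK-A549-SN cells. Every transduced sample was above every parental sample, and the ranges of Colony and SN cells overlapped. The means were 0.54 ± 0.15 (SD, n = 3) in parental, 1.19 ± 0.11 in Colony and 1.01 ± 0.21 in SN cells. The log2 difference between Colony and parental cells was 0.64 (SE 0.12, 95% confidence interval 0.34 to 0.95, limma adjusted p = 0.0392). Between SN and parental cells it was 0.47 (SE 0.16, interval 0.07 to 0.87), which did not pass (limma adjusted p = 0.183). Between Colony and SN cells it was 0.17 (interval -0.16 to 0.51, limma adjusted p = 0.492), and 0.079 to 0.28 under the alternatives. Across the 3 groups together, limma's F test on all 9 arrays gave an adjusted p of 0.0482 for JAG1.

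The adjusted p of JAG1 was near the threshold. With all probes tested and no filter on detection, the limma adjusted p was 0.0866, where 1.33% of all probes passed. Without 1 array at a time the direction was kept, with log2 differences of 0.56 to 0.70. Limma's adjusted p was 0.0507, 0.104 and 0.0364 without parental replicates 1, 2 and 3, where 8.01%, 0.0033% and 13.8% of all probes passed. Without Colony replicates 1, 2 and 3 it was 0.113, 0.138 and 0.130, where 0.47%, 0% and 0.272% of all probes passed.

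The other ligands gave no such separation from parental cells. JAG2, a second Jagged ligand, was at -1.38, -1.42 and -0.76 in parental cells, -1.46, -1.38 and -1.48 in Colony cells and -1.17, -1.07 and -1.36 in SN cells. Parental replicate 3 was the highest of all arrays, and every Colony sample was below every SN sample by a narrow margin. The Colony level differed from the SN level by -0.24 on the log2 scale (SE 0.10, limma adjusted p = 0.283), and by -0.32 to -0.15 under the alternatives. The SD was 0.37 between the parental samples, 0.052 between the Colony and 0.15 between the SN samples (n = 3 each). DLL1, a Delta ligand, was between -6.69 and -5.96 and was well above background on none of the arrays, so no difference was tested.

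Of the receptors, NOTCH3 showed the widest separation of group means among probes above background on all 9 arrays. It was at 4.16, 4.38 and 5.02 in parental cells, 3.94, 4.04 and 3.54 in OSK-A549-Colony cells and 4.38, 4.60 and 4.19 in OSK-A549-SN cells. All Colony samples were below all samples of both other groups, while parental and SN samples overlapped. The Colony mean was 3.84 ± 0.26 (SD, n = 3), against 4.52 ± 0.45 in parental and 4.39 ± 0.21 in SN cells. The difference from parental cells was -0.68 (SE 0.27, 95% interval -1.33 to -0.02, limma adjusted p = 0.158) and that from SN cells was -0.55 (SE 0.18, interval -0.99 to -0.10, limma adjusted p = 0.202). Neither passed, in the main analysis or under any alternative, and both comparisons use the same Colony arrays. Without parental replicate 3, the brightest array for NOTCH3, the difference from parental cells was -0.43 (limma adjusted p = 0.188).

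NOTCH2 was read by 2 probes, annotated with different RefSeq transcripts of the gene, and the probes did not behave alike. Probe A_33_P3258824 was at 1.17, 1.29 and 1.57 in parental cells, 0.82, 0.75 and 0.57 in Colony cells and 1.14, 1.05 and 0.63 in SN cells. Parental samples were above all transduced samples, by the narrow step from 1.14 in SN replicate 1 to 1.17 in parental replicate 1. The Colony level differed from the parental level by -0.63 (SE 0.15, 95% interval -0.99 to -0.27) and missed the threshold narrowly (limma adjusted p = 0.0554). It passed under 5 of 14 alternatives, with adjusted p-values from 0.0185 to 0.179. Probe A_23_P200792 was between 2.62 and 3.02 on all 9 arrays, with a Colony to parental difference of -0.06 (interval -0.40 to 0.28, limma adjusted p = 0.798). The human genome holds near-identical partial copies of NOTCH2, the NOTCH2NL genes, and whether either probe also reads them was not tested.

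NOTCH1 also had 2 probes, both annotated with one transcript. With probe A_33_P3370424 the levels were 0.19, 0.12 and 0.48 in parental cells, 0.15, 0.12 and 0.29 in Colony cells and 0.25, 0.18 and 1.35 in SN cells. SN replicate 3 stood above the other 8 arrays, which lay between 0.12 and 0.48. With that array the SN to parental difference was 0.33 (SE 0.34, limma adjusted p = 0.605), and without it the difference was -0.050. With probe A_23_P60387, the same array was at -3.91, between the other SN samples at -3.95 and -3.74. This dim probe was at -3.97, -4.02 and -3.58 in parental and -3.62, -3.47 and -3.67 in Colony cells. Its level was higher in every Colony than in every SN sample, by 0.29 on average (SE 0.10, limma adjusted p = 0.227). Under the alternatives this difference was 0.050 to 0.43. The probe lay near the detection limit, with 5 to 10 of its 10 spots per array above background and a within-array spot SD of 0.186 to 0.392. The opposite signs of both NOTCH1 probes between Colony and SN cells, 0.29 and -0.41, give no common direction for the gene, and the second was -0.030 without SN replicate 3.

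**Figure D1:**
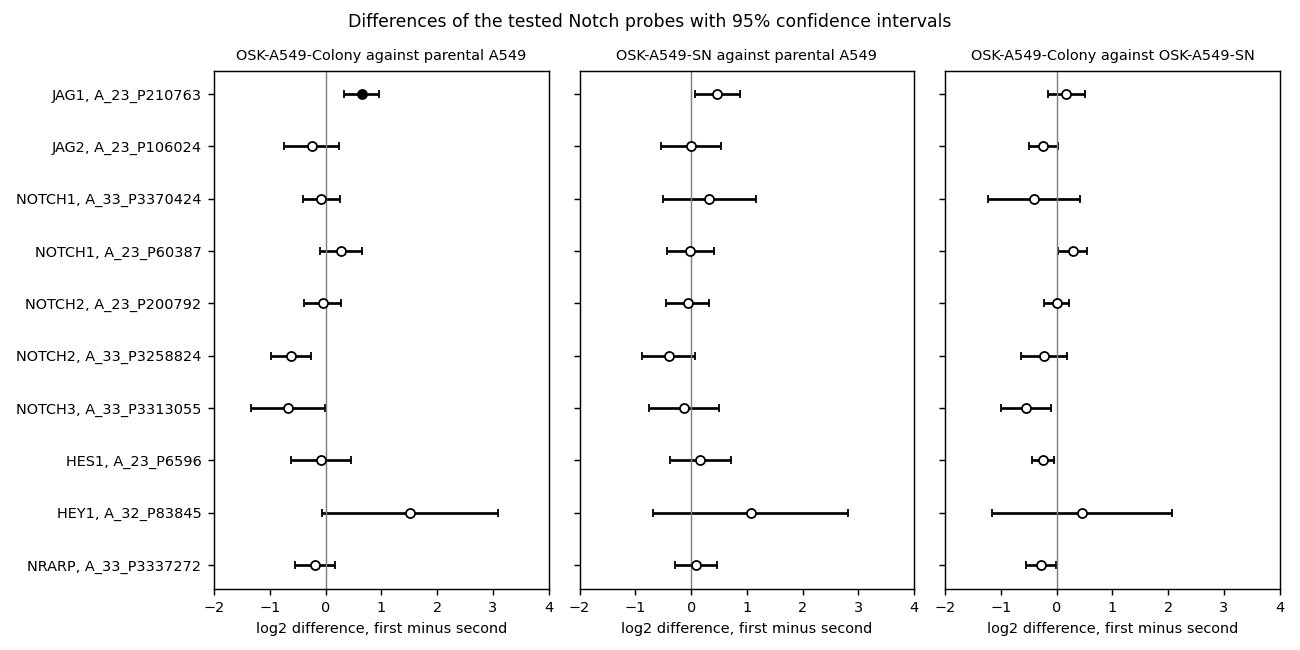
Difference in log2 level of each of the 10 tested Notch probes in the 3 comparisons, with 95% confidence intervals from limma. The filled point marks the adjusted p under 0.05, which JAG1 alone reached, at 0.64 in Colony against parental cells. HEY1 had the widest intervals, and since no parental array measured it, nothing is read from its differences from parental cells.

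HES1 and NRARP are targets of the cleaved receptor, HES1 as a repressor of transcription and NRARP as a feedback inhibitor of the Notch complex. In the RefSeq promoter windows (GRCh38.p14, 250 bases before to 50 after the start of the gene), the 6-base core TGGGAA that RBPJ binds was searched on both strands. It was present in 24.0% of 35116 promoters and, among the 7 members with an entry, in HES1 alone, as 2 copies on the gene's strand whose first bases lie at -84 and -70 from the start. The 250 bases before the start of the gene follow, 5′ to 3′ on the strand of the gene, with this core in capitals. HES1 is shown because it carries the pair of cores, NRARP as the other target and JAG1 as the member that rose, both without the core.
HES1, chr3:194135898-194136147, plus strand: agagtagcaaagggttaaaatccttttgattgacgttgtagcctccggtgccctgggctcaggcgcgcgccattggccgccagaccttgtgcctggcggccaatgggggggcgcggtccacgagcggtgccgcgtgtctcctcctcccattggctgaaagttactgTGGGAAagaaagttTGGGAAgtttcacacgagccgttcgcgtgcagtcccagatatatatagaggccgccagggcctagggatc
NRARP, chr9:137302272-137302521, minus strand: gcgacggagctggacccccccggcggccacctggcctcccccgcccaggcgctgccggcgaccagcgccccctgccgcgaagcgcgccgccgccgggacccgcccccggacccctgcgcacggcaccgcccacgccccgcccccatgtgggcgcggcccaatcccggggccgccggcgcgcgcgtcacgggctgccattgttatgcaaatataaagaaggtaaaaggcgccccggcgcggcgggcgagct
JAG1, chr20:10674000-10674249, minus strand: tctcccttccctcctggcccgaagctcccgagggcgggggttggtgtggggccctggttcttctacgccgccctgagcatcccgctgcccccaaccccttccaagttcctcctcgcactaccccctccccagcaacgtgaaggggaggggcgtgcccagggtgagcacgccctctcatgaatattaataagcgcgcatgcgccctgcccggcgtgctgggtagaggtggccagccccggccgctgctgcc
The N box CACNAG, to which HES proteins bind, was present in 38.0% of all promoters and in 5 of the 7 members, namely HES1, NOTCH1, NOTCH2, NOTCH3 and NRARP. These are matches of letters in a fixed window and were not measured as binding.

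HES1 did not pass in any comparison. It was at -2.77, -2.07 and -2.77 in parental cells, -2.67, -2.58 and -2.60 in Colony cells and -2.42, -2.33 and -2.37 in SN cells. The Colony and SN samples were each within 0.1 of their mean and did not overlap, with Colony cells lower, whereas the parental samples spanned both. The Colony to SN difference was -0.24 (SE 0.08, 95% interval -0.44 to -0.05, limma adjusted p = 0.199), and it was -0.072 with normexp background correction. Against parental cells, the differences were -0.08 for Colony cells, which turned to 0.073 under quantile normalization, and 0.16 for SN cells (limma adjusted p = 0.815 and 0.696). The SN difference of HES1 was 0.046 without parental replicate 1, 0.40 without parental replicate 2, 0.043 without parental replicate 3 and 0.034 with normexp.

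NRARP was measured by probe A_33_P3337272, while its other probe, A_33_P3337267, was well above background on none of the arrays. The levels were -0.25, -0.21 and 0.12 in parental cells, -0.44, -0.30 and -0.19 in Colony cells and -0.06, 0.10 and -0.12 in SN cells. Again all Colony samples were below all SN samples and the parental samples overlapped both. The Colony to SN difference was -0.28 (SE 0.11, limma adjusted p = 0.240), and -0.34 to -0.14 under the alternatives. The differences from parental cells were -0.20 and 0.09 (limma adjusted p = 0.398 and 0.768), the last turning to -0.0063 with normexp background correction. Without parental replicate 3 these NRARP differences were -0.081 and 0.20, and the SN difference lay between 0.017 and 0.20 when 1 array at a time was left out.

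HEY1, a repressor related to the HES proteins, was well above background on 5 of the 9 arrays. It was at -3.97, -4.23 and -5.88 in parental cells, -2.28, -3.50 and -3.76 in OSK-A549-Colony cells and -2.41, -4.25 and -4.24 in OSK-A549-SN cells. The arrays above background were 0 of 3 in parental cells, 3 of 3 in Colony cells and SN replicates 1 and 3. Replicate 1 was the brightest in each transduced group, at 51.6 intensity units in Colony and 43.7 in SN cells, against 3.69 to 16.3 in parental cells. Since no parental array measured it, the parental level has only an upper bound, and HEY1 entered both comparisons with parental cells through the transduced arrays alone, so that nothing is read from its fits there.

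**Figure D2:**
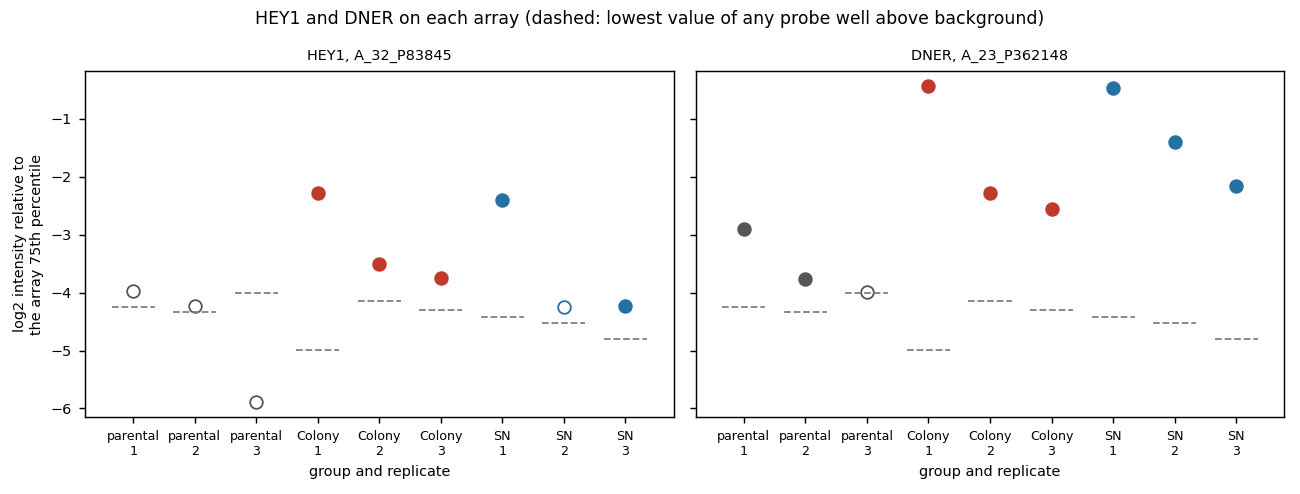
HEY1 and the Notch ligand-like gene DNER on each array, as log2 intensity relative to the array's 75th percentile, with open points where the probe was not well above background and a dashed line at the lowest value of any probe well above background on that array. In both transduced groups replicate 1 is the brightest for both genes, at -2.28 and -2.41 for HEY1 and -0.44 and -0.47 for DNER.

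Counted over the tested probes, the groups did not overlap for 4 of 10 probes between Colony and parental cells (JAG1 and HEY1 higher in Colony, NOTCH3 and 1 NOTCH2 probe lower), where this held for 41.6% of all probes. HEY1 was tested only through the transduced arrays on which it was high, and without it the count was 3 of 9. Between SN and parental cells they did not overlap for 2 of 10 (JAG1 and the same NOTCH2 probe), where 32.1% of all probes did so. Between Colony and SN cells they did not overlap for 5 of 10, where 30.8% of all probes did so. Of the 5, 4 were lower in Colony cells (NOTCH3, JAG2, HES1 and NRARP) and 1 was higher (the dim NOTCH1 probe). Among all probes tested, overlapping or not, 58.2% had a lower mean in Colony than in SN cells. The median difference of the tested Notch probes was -0.08 in Colony and 0.04 in SN cells against parental cells, beside medians of -0.03 and 0.08 over all probes. It was -0.23 between Colony and SN cells, beside -0.06 over all probes. Without HEY1 these medians were -0.083, -0.010 and -0.24.

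The named genes whose pattern over the 9 arrays was most like that of JAG1, out of 13938 genes detected on all of them, were SELENOT, TRIM24 and NSUN6, with root mean square differences of 0.0737 to 0.0750 from the centred JAG1 profile, whose own root mean square was 0.301. Those most like NOTCH3 were CNN3-DT, DDB2 and RNF122, with differences of 0.127 to 0.133 beside 0.394 for NOTCH3 itself.

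The remaining pathway was read from a list of 55 genes, of which 53 had a probe and 49 were detected. The Delta ligand DLL4, the Deltex gene DTX1 and the HES/HEY family genes HES5 and HEY2 were well above background on none of the arrays. Between Colony and parental cells 4 of 49 genes passed (2 higher and 2 lower), beside 9.02% of all probes, and 1 also had a fold change over 2, beside 3.71%. An unadjusted p under 0.05 in limma's test was reached there by 16 of the 49, beside 30.1% of all probes. Between SN and parental cells and between Colony and SN cells 0 of 49 passed limma's test, with 11 and 7 genes at an unadjusted p under 0.05, beside 21.6% and 19.5% of all probes, and a lowest adjusted p of 0.0781 and 0.106. The median difference of the 49 genes was 0.00, 0.04 and -0.03 in the 3 comparisons, beside -0.03, 0.08 and -0.06 over all probes.

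DTX3L, a ubiquitin ligase of the Deltex family that is better known for its work in DNA repair with PARP9, had the lowest p of the list in Colony against parental cells. It was at -2.01, -1.95 and -1.64 in parental cells, -0.42, -0.52 and -0.48 in Colony cells and -0.80, -0.999 and -1.24 in SN cells. The 3 groups did not overlap, with Colony cells highest and parental cells lowest. DTX3L rose 2.63-fold in Colony cells (log2 difference 1.39, SE 0.13, limma adjusted p = 0.0156), and the differences of 0.85 between SN and parental cells and 0.54 between Colony and SN cells did not pass (limma adjusted p = 0.0781 and 0.143). With normexp background correction the Colony difference of DTX3L was 0.94, under a fold change of 2 (limma adjusted p = 0.0046).

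POGLUT1, which adds glucose to the extracellular repeats of Notch, also rose in Colony cells. Its level was 0.54, 0.31 and 0.17 in parental cells and 0.97, 0.96 and 1.18 in Colony cells, a 1.62-fold difference (limma adjusted p = 0.0411), and 0.83, 0.69 and 0.95 in SN cells. APH1B, a subunit of gamma-secretase, fell from 3.30, 3.46 and 3.97 in parental cells to 2.72, 2.66 and 2.55 in Colony cells, a log2 difference of -0.93 (limma adjusted p = 0.0459), and was 2.86, 3.03 and 2.49 in SN cells. For both genes every transduced sample lay on one side of every parental sample. The subunits APH1A (brighter of 2 probes), NCSTN, PSEN2 and PSENEN did not pass. NEURL1B, a ubiquitin ligase that promotes uptake of Notch ligands, fell by 0.70 on the log2 scale, from 0.45, 0.28 and 0.70 to -0.19, -0.28 and -0.19 (limma adjusted p = 0.0404), and was 0.21, 0.39 and 0.31 in SN cells. The Colony samples of NEURL1B were below all others. The values of NEURL1B are from the brighter of its 2 probes, and its other probe is not reported here. None of these 4 genes passed when parental replicate 2 or any 1 Colony array was left out, with limma adjusted p-values of 0.0600 to 0.155, and 0% to 0.47% of all probes passed there. Without parental replicate 3, 8 genes of the list passed, beside 13.8% of all probes. NEURL1B did not pass without parental replicate 1 (limma adjusted p = 0.0649), and POGLUT1, APH1B and NEURL1B also did not pass without a detection filter (0.0843 to 0.0857).

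**Figure D3:**
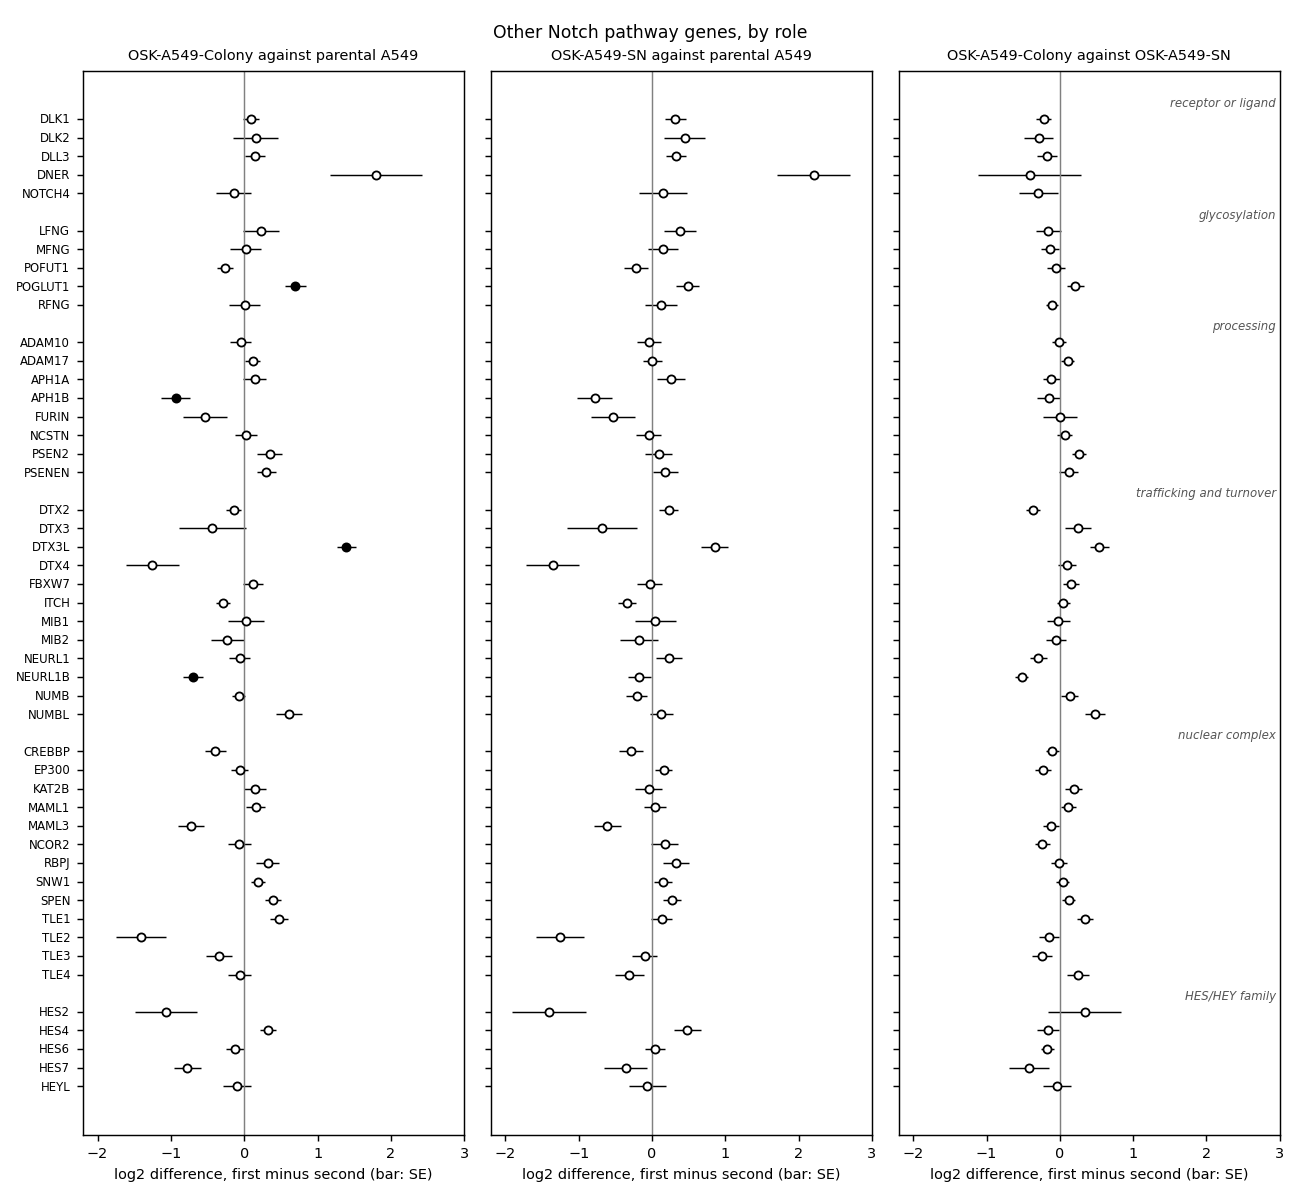
Difference in log2 level of detected genes of the wider Notch pathway list, grouped by role, in the 3 comparisons, with bars for the standard error. Filled points mark an adjusted p under 0.05 and occur only in Colony against parental cells, for DTX3L, POGLUT1, APH1B and NEURL1B.

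Other genes of the list named here for the size of their difference did not pass in the main analysis. TLE2, a Groucho-type corepressor, was at 0.35, 0.93 and 1.63 in parental cells, -0.68, -0.36 and -0.27 in Colony cells and -0.35, -0.16 and -0.35 in SN cells. The parental samples were above all transduced samples and spread widely, and the log2 differences were -1.41 and -1.26 (limma adjusted p = 0.0588 and 0.109). TLE2 passed under 5 of 14 alternatives in Colony and 4 of 15 in SN cells. DTX4, another Deltex ligase, differed by -1.25 in Colony and -1.35 in SN cells (limma adjusted p = 0.0859 and 0.115), with parental levels between -2.73 and -1.31 and all transduced samples between -3.53 and -3.14. With normexp background correction the DTX4 differences were -0.56 and -0.59, and DTX4 passed under 3 of 14 and 3 of 15 alternatives. NUMBL, related to the Notch inhibitor NUMB, was 0.48 higher in Colony than in SN cells (limma adjusted p = 0.165). RBPJ itself, the DNA-binding partner of the receptors, differed from parental cells by 0.32 in Colony and 0.33 in SN cells (limma adjusted p = 0.235 and 0.338). These values are from the brighter of the 2 RBPJ probes.

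DNER and HES2 were added to the account after their values were seen, because they had the largest differences among genes that were near background on some array. DNER, which encodes a membrane protein with Delta-like repeats, was at -2.90, -3.77 and -3.99 in parental cells, -0.44, -2.28 and -2.56 in Colony cells and -0.47, -1.41 and -2.17 in SN cells. All transduced samples were above all parental samples, and replicate 1 was the highest of each of the 3 groups. DNER was well above background on 2 of 3 parental arrays, so that the fitted differences of 1.79 in Colony and 2.21 in SN cells, which did not pass (limma adjusted p = 0.127 and 0.0880), include a parental value, that of replicate 3, not measured above background. Without Colony replicate 1 the Colony difference of DNER was 1.13, and without SN replicate 1 the SN difference was 1.77. HES2, of the HES/HEY family, had fitted log2 differences of -1.07 in Colony and -1.41 in SN cells and did not pass (limma adjusted p = 0.160 and 0.188). Its Colony and parental samples overlapped. HES2 was above background on 2 of 3 SN arrays, at -3.01 and -3.18. The fitted SN difference includes the value of SN replicate 3, -4.52, which was not above background.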

How the data were processed

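RNA from 9 samples was hybridised to Agilent SuperPrint G3 Human arrays, and the authors deposited for each array the spot intensity from Agilent Feature Extraction 11.5.1.1, after background subtraction and before any normalization across samples. A log2 table, deposited as well, equals the values used here up to a constant shift of each array (100% of probes within 0.01) and served as an alternative.

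Control and outlier spots were left out, the spots of a probe were averaged, and log2 values were centred on each array's 75th percentile. Genes were named by matching RefSeq accessions to a gene table, which named 30275 of the 50599 probes. A probe was detected on an array where at least 0.5 of its spots were positive, significant and well above background. Each comparison was fitted with lmFit and eBayes (limma 3.58.1, R 4.3.3) on its own 6 arrays, over probes detected on at least 1 of them, with Benjamini-Hochberg adjustment. A probe passed at an adjusted p under 0.05, and calls also needed a fold change over 2. The methods of the study give 3 transduction experiments, and the labels do not say which sample came from which. The p-values measure only the spread between these samples, and the 3 arrays per group limit the precision.

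The members, the wider pathway list, the motifs and the marker lists were chosen with earlier results of these data known. Of the pathway list, genes past the threshold and the 3 largest differences per comparison among probes above background on all 6 arrays are named, using the brightest probe of each gene. The normexp alternative used median spot brightness with an offset of 50, as the mean was not in the files used. In the plot of the pathway list 1 gene is not shown, and it is not reported here by name. Probe sequences and transcript coordinates were not used here. The alternatives were normexp, quantile normalization, the deposited table, no filter or a stricter filter on detection, a block for slide or for replicate number, a joint fit of the 9 arrays, a trended and robust prior, and leaving out each array.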

Additional observations from a re-analysis of the deposited data

How the results depend on the processing

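JAG1 in Colony against parental cells had log2 differences of 0.56 to 0.70 over the 14 alternatives. It passed under 7 of them, with limma adjusted p-values from 0.0116 to 0.138. The changes of filter, the replicate block, the joint fit and the trended prior leave the difference itself unchanged, and the deposited table nearly so. The direction of JAG1 could not turn under those alternatives, and it was kept under the others. The number of Notch probes at an adjusted p under 0.05 in that comparison, 1 in the main analysis, was 2 with normexp, quantile normalization, the stricter filter, all 9 arrays in 1 fit or the trended prior, 0 without a filter, and 0 to 1 when 1 array was left out. Of the wider pathway, 4 genes passed there in the main analysis, 6 with normexp and 4 with quantile normalization. The count was 1 without a filter, 9 with the stricter filter or the trended prior, 10 with all 9 arrays, and 0 to 8 when 1 array was left out. The share of all probes that passed was 9.02% in the main analysis, 13.8% with normexp, 10.4% with quantile normalization and 1.33% without a filter. It was 20.3% with the stricter filter, 16.8% with the trended prior, 16.3% with all 9 arrays and 0% to 13.8% when 1 array was left out. With a fold change over 2 as well, the count of 1 became 3 with the stricter filter, all 9 arrays or the trended prior, and 0 to 3 when 1 array was left out (3 without parental replicate 1), and with normexp the 1 gene was TLE2 (-1.11, adjusted p = 0.0252) in place of DTX3L. Between SN and parental cells the 0 pathway genes became 3 with normexp, 4 with the stricter filter or the trended prior and 3 with all 9 arrays (beside 1.82% of all probes in the main analysis, 4.92% with normexp, 7.93% with the stricter filter, 6.61% with the trended prior and 9.91% with all 9 arrays), and with the fold change 1, 3, 3 and 2 under normexp, the stricter filter, the trended prior and all 9 arrays. Between Colony and SN cells they became 1 with normexp or the trended prior, beside 1.70% and 3.36% of all probes. The cause of these shifts was not tested. No Notch member was called at a fold change over 2 under any alternative run.

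With the replicate number as a block (the paired fit), 0 probes of the whole array passed in any comparison, so that the counts for Colony against parental cells fell to 0, and JAG1 had an adjusted p of 0.136. Colony and SN samples of the same number also had the same passage number, and the methods of the study collect both kinds of cell from the same dishes, but the labels do not say that a number marks a shared dish. Their deviations correlated at 0.239, 0.073 and 0.137 between Colony and SN cells, where each Colony array correlated best with its own number. Parental samples shared only a number with the others, with correlations of -0.053 to -0.007 for Colony and -0.196 to 0.15 for SN cells. Slide as a block could not be run for Colony against parental cells, all on 1 slide.

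Directions that turned belonged to differences that did not pass. Against parental cells these were HES1 in Colony cells, 0.073 with quantile normalization, and in SN cells the dim NOTCH1 probe (0.0070 with normexp, 0.0096 with slide as a block), the brighter NOTCH1 probe (-0.050 with slide as a block), JAG2 (0.0016 with normexp, 0.047 with quantile normalization, 0.069 with slide as a block) and NRARP (-0.0063 with normexp). NOTCH2 probe A_23_P200792 turned to -0.049 between Colony and SN cells with slide as a block. Because SN replicate 3 was alone on its slide, slide as a block gives the same differences as leaving that array out. Leaving out 1 array gave ranges across 0 in Colony against parental cells for NOTCH1 probe A_33_P3370424 (-0.15 to 0.028), NOTCH2 probe A_23_P200792 (-0.13 to 0.064) and HES1 (-0.20 to 0.15), in SN against parental cells for both NOTCH1 probes (-0.095 to 0.13 and -0.050 to 0.53), NOTCH2 probe A_23_P200792 (-0.13 to 0.060), NOTCH3 (-0.31 to 0.12) and JAG2 (-0.13 to 0.20), and in Colony against SN cells for NOTCH2 probe A_23_P200792 (-0.049 to 0.039). DLL1, 1 NRARP probe and, in parental cells, HEY1 were limited by signal over background.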
